A study of Mus musculus with 6 samples.

Results

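The genes described here are 42 genes of collagens and the stromal matrix, the fibrous material that connective tissue cells lay down around themselves, measured in macrophages sorted from inflamed mouse colon. They were taken by symbol from a fixed list, and all 42 are present among the 17067 genes of each expression table. No filter on level was applied to them. Expression was measured by RNA sequencing in 3 samples from wild-type (WT) mice and 3 from Gsdmd-/- mice, which lack gasdermin D, the protein that opens pores in the cell membrane during pyroptosis. All 6 samples came from C57BL/6 mice aged 10 weeks whose colitis was induced with dextran sulfate sodium (DSS), a polymer that injures the colon lining, so the controls carry the colitis too and no sample without colitis is compared. The cells were sorted from the colon on CD45, a marker of blood-derived cells, and on CD11b and F4/80, which mark macrophages. The labels do not say how the deletion was made, whether the samples are from separate mice, or how many mice gave each sample, and p-values here reflect sample spread alone, possibly technical.

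Collagens are long proteins wound into a triple helix, made and folded in the endoplasmic reticulum and then secreted, trimmed and cross-linked into fibrils, networks or filaments. In the colon the main producers are fibroblasts and smooth muscle cells, with endothelial and epithelial cells adding basement membrane collagens. Macrophages are known mostly for taking up and degrading collagen and for secreting a few matrix proteins, among them fibronectin and collagen VI. Most of the 42 genes are textbook genes of cells outside the sorting gate.

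Levels are given as FPKM, fragments scaled to transcript length and to library size, which allows genes of different length to be set side by side. The libraries held an estimated 20100000 to 20800000 fragments each. Gsdmd was lower in every sample labelled Gsdmd-/- (28.5, 29.0 and 29.7 FPKM) than in any WT sample (97.7, 99.4 and 97.4 FPKM). Transcripts of the gate were abundant in all samples: Itgam, which encodes CD11b, lay between 87.6 and 179 FPKM, Adgre1, which encodes F4/80, between 212 and 295 FPKM, Ptprc, which encodes CD45, between 56.2 and 95.5 FPKM, and all 3 fell in Gsdmd-/- samples (log2 changes -0.94, -0.43 and -0.67, and -0.71, -0.32 and -0.22 after a correction for transcript length and GC content). The other macrophage genes with the highest levels were Lyz2, Cd68 and Csf1r, and of the 10 markers of macrophages and the gate 3 rose and 5 fell (1 and 8 after that correction).

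Most of the 42 genes were higher in Gsdmd-/- macrophage samples: 33 rose (78.6%) and 4 fell (9.52%), while 5 did not pass the test. Tests were made with limma over all 17041 genes with a value above 0, on log2(FPKM + 1), with Benjamini-Hochberg adjustment, and "rose" or "fell" means an adjusted p under 0.05. Changes between the genotypes were common in these data: 26.3% of all genes rose and 22.9% fell, together 49.2%. The share of the 42 genes that rose was thus well above that background and the share that fell below it. That background includes many low genes, which are seldom called. When only the 9905 genes with a mean of at least 1 FPKM were tested, 40.5% rose and 36.9% fell. Of the 32 listed genes among them, 28 rose and 4 fell. The median log2 change of the 42 genes was 0.82, beside 0.0095 over all genes. The ratio of mean FPKM, Gsdmd-/- over WT, was at least 2 for 23 of the 42, against 13.4% of all genes, many of which are near the floor. A rise of at least 1 on the log2 scale that passed the test was seen in 15 of the 42 genes (35.7%), against 0.446% of all genes, so that 19.7% of the 76 genes with such a rise were on this list. On log2(FPKM + 1) a gene that stays near the floor cannot rise by 1, so these shares depend on level as well. For 34 of the 42, all 3 Gsdmd-/- samples lay above all 3 WT samples, against 28.6% of all genes, and for 4 they lay below all WT samples, against 25.3%. Because the list was drawn up with earlier results of these data known, these counts are a description and not a test of the list. In samples of sorted cells, more cells of a type and more RNA per cell cannot be told apart.

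Summed over the 42 genes, the level was 128, 132 and 127 FPKM in the WT samples and 250.5, 249 and 248 FPKM in the Gsdmd-/- samples. Without Col18a1, which had the highest mean over all samples, the sums were 98.0, 100.7 and 98.5 FPKM against 224, 222 and 220 FPKM. The sums of the genotypes did not overlap, and the spread within each genotype was small. The total over all genes was also higher in Gsdmd-/- samples, 551502 to 565388 FPKM against 476271 to 485411 FPKM in WT. Within WT the highest value of a gene fell on sample 1 for 14 genes, on sample 2 for 17 and on sample 3 for 11, so no 1 WT sample held most of the highest values. The coefficient of variation between samples of a genotype had a median of 8.70% over the 42 genes in WT and 8.0% in Gsdmd-/-.

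**Figure D1:**
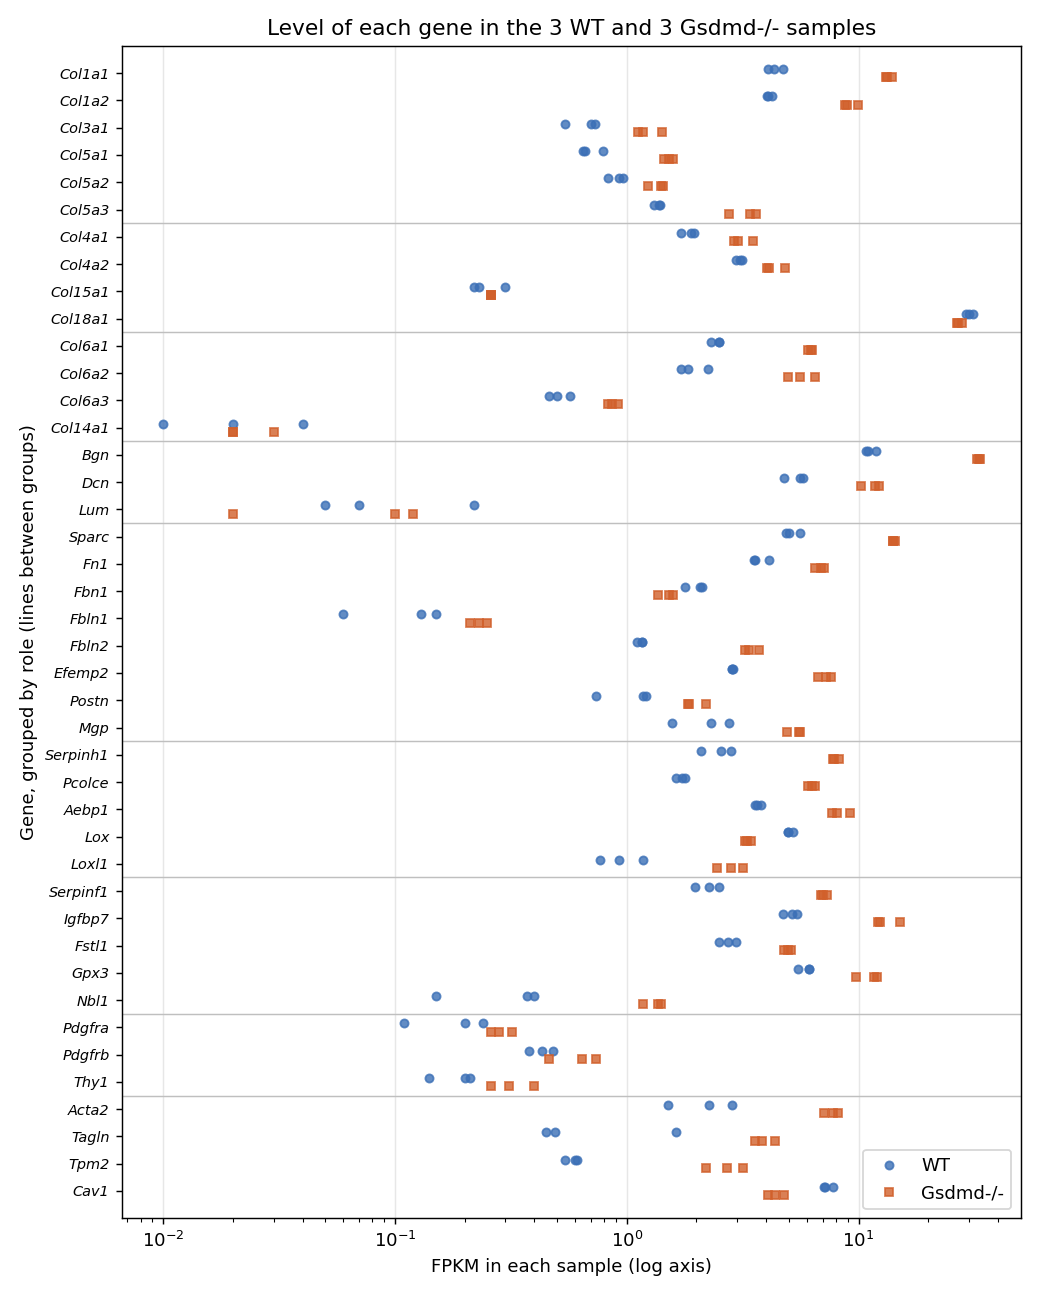
Level of each of the 42 genes in every sample, in FPKM on a log axis, with WT samples as blue circles and Gsdmd-/- samples as orange squares, and lines between the groups of roles. For 34 genes all Gsdmd-/- squares lie to the right of all WT circles, and for Col18a1, Fbn1, Lox and Cav1 they lie to the left.

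Across these data log2 changes followed transcript length, with shorter transcripts higher in Gsdmd-/- samples. Over 9757 genes with a mean of at least 1 FPKM, Spearman's rho between log2 change and length was -0.65, and with GC content it was 0.50. Over the 42 genes rho with length was -0.50 and with GC 0.26 (these are correlations across genes that share the same 6 libraries). The collagen genes are mostly long, and Mgp, Igfbp7 and Gpx3 have the shortest transcripts of the list. After correction for length and GC, that is, with a smooth trend on both properties removed in each sample, 34 of the 42 genes rose, against 19.4% of all genes, and 3 fell, against 19.1%, and 32 genes rose both with and without it. The median log2 change of the 42 was then 0.70, and 13 of them still rose by at least 1. Part of the trend remained after the correction. Over the 9757 genes rho was then -0.16 with length and 0.12 with GC, and over the 42 it was -0.29 and 0.22. The log2 changes of the long genes Fn1, Col5a2 and Col6a3 then were 0.99, 0.50 and 0.44, larger than the 0.72, 0.31 and 0.31 of the deposited values, and those of Igfbp7, Gpx3 and Mgp were over 1.5 times smaller. When values were rescaled to the same sum in each sample (TPM), 31 genes rose, against 15.9% of all genes, and 4 fell, against 32.2%. TPM moved the median log2 change of genes with a mean of at least 1 FPKM from 0.03 to -0.17, and the share of all calls that were higher from 53.5% to 33.0%.

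All 6 genes of the fibrillar collagens rose. Col1a1 and Col1a2 encode the chains of collagen I, the main fibre of connective tissue. Col1a1 was at 4.30, 4.72 and 4.06 FPKM in the WT samples and 13.2, 13.9 and 13.1 FPKM in the Gsdmd-/- samples. Its means were 4.36 ± 0.334 and 13.4 ± 0.452 FPKM (SD, n = 3 each), a 3.08-fold difference and a log2 change of 1.43 (SE 0.0583, adjusted p = 1.08e-06). Col1a2 went from 4.22, 4.05 and 4.04 FPKM in WT to 8.74, 8.93 and 9.97 FPKM in Gsdmd-/- (log2 change 0.999, adjusted p = 3.90e-06). Each Gsdmd-/- value of either gene was above every WT value. The ratio of Col1a1 to Col1a2 within a sample was 1.02, 1.17 and 1.01 in WT and 1.52, 1.56 and 1.31 in Gsdmd-/-, without overlap. Ratios between genes are given as a description and were not tested. Col1a1 lies on chromosome 11 at 94936224 to 94953042 and Col1a2 on chromosome 6 at 4505618 to 4541543 (GRCm38.p6).

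Collagen III and collagen V form or regulate mixed fibrils with collagen I, and their genes were at lower levels. Col3a1 was at 0.73, 0.54 and 0.70 FPKM in WT samples and 1.18, 1.42 and 1.12 FPKM in Gsdmd-/- samples, a rise of 0.43 on the log2 scale (adjusted p = 0.00173). The ratio of Col1a1 to Col3a1 was 5.8 to 8.74 in WT and 9.81 to 11.7 in Gsdmd-/-. Of the collagen V chains, Col5a3 rose most, with 1.39, 1.38 and 1.31 FPKM in WT samples and 3.63, 2.75 and 3.39 FPKM in Gsdmd-/- (log2 change 0.85, adjusted p = 5.88e-05). Col5a1 was at 0.79, 0.65 and 0.66 FPKM in WT samples and 1.45, 1.58 and 1.52 FPKM in Gsdmd-/- (log2 change 0.57). Col5a2 was at 0.93, 0.96 and 0.83 FPKM in WT samples and 1.44, 1.24 and 1.41 FPKM in Gsdmd-/- (log2 change 0.31), and all 3 chains were higher in every Gsdmd-/- sample. Col5a1 and Col5a2 stood at 0.677 to 0.850 of each other in WT, as Col5a1 over Col5a2, and at 1.01 to 1.27 in Gsdmd-/-, without overlap.

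Of the collagen IV genes of the basement membrane, Col4a1 and Col4a2 rose, Col4a5 and Col4a6 fell, and Col4a3 and Col4a4 lay at 0.01 to 0.02 FPKM in all samples and did not pass the test. Col4a1 and Col4a2 encode the chains found in nearly all basement membranes and stand head to head on chromosome 8. Col4a1 was at 1.95, 1.89 and 1.71 FPKM in WT samples and 3.03, 2.91 and 3.52 FPKM in Gsdmd-/- (log2 change 0.54, adjusted p = 3.61e-04). Col4a2 was at 3.08, 2.96 and 3.13 FPKM in WT samples and 4.04, 4.13 and 4.82 FPKM in Gsdmd-/- (log2 change 0.39, adjusted p = 0.00154). Both rose with no overlap between genotypes. Col4a5 and Col4a6, which encode collagen IV chains of more restricted basement membranes, are not on the list of 42. Col4a5 went from 2.71, 2.51 and 2.82 FPKM in WT to 0.79, 1.01 and 1.05 FPKM in Gsdmd-/- (log2 change -0.92, adjusted p = 1.75e-05), and Col4a6 from 0.20, 0.26 and 0.26 to 0.05, 0.02 and 0.11 FPKM (log2 change -0.23, adjusted p = 0.00180). Col4a3, Col4a4 and Col4a6 were named after their values were seen. After correction for length and GC, the log2 changes were 0.66 and 0.48 for Col4a1 and Col4a2, and -0.73 and -0.20 for Col4a5 and Col4a6. In TPM the change of Col4a2 was 0.24 (adjusted p = 0.0406).

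The sequences around the start sites of these 4 genes are shown because each pair stands head to head and its genes changed in the same direction. They are RefSeq sequences of GRCm38.p6, each running from 250 bases before the start site to 50 bases from it on, 5′ to 3′ on the gene's own strand, with the GC box GGGCGG or its reverse complement CCGCCC in capitals. The windows are chr8:11312777-11313076 on the minus strand for Col4a1, chr8:11312555-11312854 on the plus strand for Col4a2, chrX:141475169-141475468 on the plus strand for Col4a5 and chrX:141474027-141474326 on the minus strand for Col4a6. The start sites of the Col4a1 and Col4a2 windows lie 21 bases apart and the windows share 78 bases, while those of Col4a5 and Col4a6 lie 1343 bases apart and share none. The RefSeq gene span of Col4a1 reaches to 11312889, beyond the start site used for its window, so the distance depends on the transcript.
Col4a1: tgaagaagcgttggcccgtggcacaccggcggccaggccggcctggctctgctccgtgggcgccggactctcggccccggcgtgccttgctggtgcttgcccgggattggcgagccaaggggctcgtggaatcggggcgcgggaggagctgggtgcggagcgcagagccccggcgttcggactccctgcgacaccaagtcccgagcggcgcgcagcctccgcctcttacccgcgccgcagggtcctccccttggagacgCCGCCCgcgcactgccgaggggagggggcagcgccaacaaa
Col4a2: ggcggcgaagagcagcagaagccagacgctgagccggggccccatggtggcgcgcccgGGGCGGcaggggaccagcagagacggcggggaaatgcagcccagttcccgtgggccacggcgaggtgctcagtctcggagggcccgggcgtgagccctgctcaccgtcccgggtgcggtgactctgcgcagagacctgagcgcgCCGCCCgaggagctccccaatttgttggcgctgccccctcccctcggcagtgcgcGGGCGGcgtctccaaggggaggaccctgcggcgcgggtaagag
Col4a5: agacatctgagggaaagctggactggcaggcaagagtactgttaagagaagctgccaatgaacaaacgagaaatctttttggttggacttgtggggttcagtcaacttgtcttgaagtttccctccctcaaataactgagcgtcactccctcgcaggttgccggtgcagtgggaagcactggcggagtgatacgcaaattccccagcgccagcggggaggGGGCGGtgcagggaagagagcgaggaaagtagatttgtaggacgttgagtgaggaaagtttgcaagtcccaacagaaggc
Col4a6: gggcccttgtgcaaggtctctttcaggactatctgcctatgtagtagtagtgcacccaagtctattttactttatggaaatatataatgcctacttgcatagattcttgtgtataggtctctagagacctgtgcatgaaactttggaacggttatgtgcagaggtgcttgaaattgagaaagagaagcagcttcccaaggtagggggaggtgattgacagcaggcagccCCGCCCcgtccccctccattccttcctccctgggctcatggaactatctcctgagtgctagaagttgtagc
The Col4a2 window holds 3 GC boxes and the other windows 1 each. The box of the Col4a1 window and the last box of the Col4a2 window are the same bases, read on opposite strands. A match is a description of the letters and not evidence that a factor binds there.

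Col18a1 and Col15a1 encode multiplexins, basement membrane collagens whose ends can be released as fragments such as endostatin. Col18a1 had the highest level of the 42 genes in WT, 29.9, 31.2 and 28.9 FPKM, and 26.5, 26.7 and 27.8 FPKM in Gsdmd-/- samples. Its log2 change was -0.15 (SE 0.0399, adjusted p = 0.0152), a ratio of 0.900, with no overlap between genotypes. Col15a1 was low in all samples, 0.30, 0.23 and 0.22 FPKM in WT samples and 0.26, 0.26 and 0.26 FPKM in Gsdmd-/- (log2 change 0.01, 95% interval -0.09 to 0.11). The fall of Col18a1 was -0.10 after correction for length and GC (adjusted p = 0.0388) and -0.37 in TPM (adjusted p = 1.13e-04), and it lost its call without Gsdmd-/- sample 1 (adjusted p = 0.0563).

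Collagen VI forms beaded filaments near cell surfaces, and its 3 chain genes rose. Col6a1 was at 2.50, 2.30 and 2.50 FPKM in WT samples and 6.26, 6.27 and 6.05 FPKM in Gsdmd-/- (log2 change 1.07, SE 0.0531, adjusted p = 1.93e-06). Col6a2 was at 1.71, 2.25 and 1.83 FPKM in WT samples and 6.50, 4.97 and 5.58 FPKM in Gsdmd-/- (log2 change 1.19, adjusted p = 2.41e-05). Col6a3, whose transcript is the longest of these 3, rose less, with means of 0.510 ± 0.0557 FPKM in WT and 0.870 ± 0.0458 FPKM in Gsdmd-/- (log2 change 0.31, adjusted p = 0.00262). The ratio of Col6a1 to Col6a2 overlapped between genotypes (1.02 to 1.46 in WT and 0.963 to 1.26 in Gsdmd-/-), while that of Col6a1 to Col6a3 did not (4.39 to 5.43 and 6.80 to 7.29). Col14a1, a collagen attached to fibril surfaces, was at 0.01 to 0.04 FPKM, an estimated 9 fragments over the 3 WT libraries and 10 over the 3 Gsdmd-/- libraries, and its change was not measurable at this depth.

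**Figure D2:**
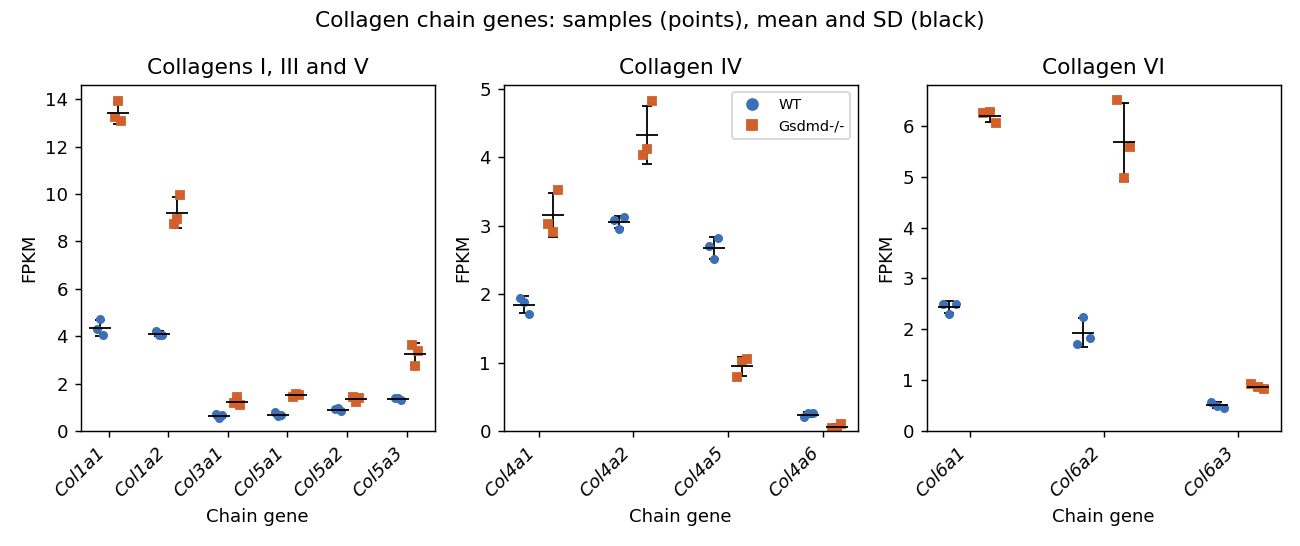
FPKM of the collagen chain genes, with WT samples as blue circles, Gsdmd-/- samples as orange squares, and the mean and SD of 3 samples in black; each panel starts at 0. Col1a1, Col1a2, Col4a1, Col4a2, Col6a1 and Col6a2 are higher in all Gsdmd-/- samples, while Col4a5 and Col4a6 are lower.

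Of the small leucine-rich proteoglycans, which coat and space collagen fibrils, Bgn and Dcn rose and Lum stayed near the floor. Bgn encodes biglycan, which is also known as a ligand of Toll-like receptors when it is free of the matrix. It was at 10.96, 10.8 and 11.9 FPKM in WT samples and 32.6, 33.2 and 33.3 FPKM in Gsdmd-/-, with means of 11.2 ± 0.601 and 33.0 ± 0.404 FPKM (SD, n = 3 each). Its log2 change of 1.48 (SE 0.0443, adjusted p = 5.97e-07) was exceeded by that of 20 of the 17041 genes on this scale. It was among the largest of the 42 genes, whose order at the top depended on the processing: Col1a1 led after correction for length and GC (1.52, Bgn 1.32), and Tagln led in TPM (1.63, Bgn 1.301). With 0.1 in place of 1 added to FPKM, the log2 change of Bgn was 1.55. Those of the lower genes Tagln, Tpm2 and Nbl1 were then 2.28, 2.01 and 1.865. Dcn, which encodes decorin, was at 4.79, 5.74 and 5.61 FPKM in WT samples and 12.2, 11.8 and 10.2 FPKM in Gsdmd-/- (log2 change 0.96, adjusted p = 2.43e-05). The ratio of Bgn to Dcn was 1.88 to 2.29 in WT and 2.67 to 3.25 in Gsdmd-/-, without overlap. Lum, which encodes lumican, lay between 0.02 and 0.22 FPKM, an estimated 16 and 12 fragments in the WT and Gsdmd-/- libraries together (log2 change -0.04, 95% interval -0.18 to 0.10).

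The start site window of Bgn (chrX:73483351-73483650, plus strand, RefSeq, GRCm38.p6) is shown in the same form because Bgn was the most abundant of the 42 genes in Gsdmd-/- samples.
Bgn: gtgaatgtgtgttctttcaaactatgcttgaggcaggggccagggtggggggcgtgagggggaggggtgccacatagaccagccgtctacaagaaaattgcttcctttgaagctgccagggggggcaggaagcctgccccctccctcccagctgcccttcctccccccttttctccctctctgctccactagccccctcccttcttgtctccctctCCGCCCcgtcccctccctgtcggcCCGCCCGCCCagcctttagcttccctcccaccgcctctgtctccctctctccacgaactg
It holds 3 GC boxes on the reverse strand, 2 of them overlapping by 2 bases. RefSeq start site windows were found for 30 of the 42 genes, and 20 of these 30 (66.7%) held a GC box on either strand. The share was 35.9% over all 27025 genes with a window and 65.7% over the 8035 genes with a mean of at least 1 FPKM here, so the 30 windows held the box about as often as those of other genes expressed in these samples. CCAAT or its reverse complement was found in 8 of the 30 windows (26.7%) and in 38.9% of those of the expressed genes, TATAAA on the gene's strand in 1 (Col3a1) and in 4.36%. The CArG box, read as its usual consensus and known from smooth muscle genes, was not matched in the 30 windows and was matched in 1.28% of those of the expressed genes. At so low a share, no match in 30 windows says little, and listed genes without a window were not searched.

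Of 8 genes of matrix glycoproteins, 7 rose and 1 fell. Sparc encodes a collagen-binding protein that acts on cells and matrix assembly. It was at 4.88, 5.61 and 4.99 FPKM in WT samples and 14.1, 14.4 and 14.1 FPKM in Gsdmd-/- (log2 change 1.31, SE 0.0554, adjusted p = 1.18e-06), and its genotypes were well apart. Fn1, which encodes fibronectin and is known to be expressed by macrophages themselves, went from 3.55, 3.59 and 4.11 FPKM in WT to 6.88, 6.51 and 7.13 FPKM in Gsdmd-/- (log2 change 0.72, adjusted p = 3.03e-05). Fbln2, an elastic fibre and basement membrane protein gene, was at 1.11, 1.16 and 1.16 FPKM in WT samples and 3.71, 3.37 and 3.25 FPKM in Gsdmd-/- (log2 change 1.05, adjusted p = 3.90e-06). Efemp2 encodes fibulin-4, which is needed for elastic fibres and collagen cross-linking, and was at 2.87, 2.85 and 2.84 FPKM in WT samples and 7.58, 7.25 and 6.66 FPKM in Gsdmd-/- (log2 change 1.08, adjusted p = 2.60e-06). All 3 Gsdmd-/- values of Sparc, Fn1, Fbln2 and Efemp2 were above all their WT values.

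Mgp encodes matrix Gla protein, an inhibitor of calcification, and varied more between samples: it was at 2.77, 2.30 and 1.57 FPKM in WT samples and 5.55, 4.91 and 5.61 FPKM in Gsdmd-/- (log2 change 1.0, SE 0.130, adjusted p = 2.81e-04). Its transcript is the shortest of the list, and the change was 0.57 after correction for length and GC. Postn, a matricellular protein gene of activated fibroblasts, was at 1.18, 0.74 and 1.21 FPKM in WT samples and 2.19, 1.84 and 1.85 FPKM in Gsdmd-/- (log2 change 0.54, adjusted p = 0.00255). Fbln1 was near the floor, with 0.06, 0.15 and 0.13 FPKM in WT samples and 0.23, 0.21 and 0.25 FPKM in Gsdmd-/- (log2 change 0.14, adjusted p = 0.0172), and lost its call without WT sample 1 (adjusted p = 0.0636) or Gsdmd-/- sample 3 (adjusted p = 0.0523). Fbn1, which encodes fibrillin-1 of the elastic microfibrils, went the other way. Its WT samples were at 2.07, 1.78 and 2.11 FPKM and its Gsdmd-/- samples at 1.37, 1.52 and 1.58 FPKM, a log2 change of -0.26 (adjusted p = 0.0138). Fbn1 has the longest transcript of the list, and after correction for length and GC its change was 0.0027 below 0 (adjusted p = 0.978), while in TPM it was -0.49 (adjusted p = 0.00186). It also lost its call without WT sample 1 (adjusted p = 0.0504) or WT sample 3 (adjusted p = 0.0526).

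Genes that fold, trim and cross-link collagen rose in 4 of 5 cases. Serpinh1 encodes HSP47, the chaperone of procollagen in the endoplasmic reticulum. It was at 2.09, 2.55 and 2.82 FPKM in WT samples and 8.28, 7.78 and 7.85 FPKM in Gsdmd-/-, a 3.21-fold difference (log2 change 1.37, SE 0.0810, adjusted p = 3.97e-06). Pcolce encodes an enhancer of the protease that removes the C-terminal propeptide of procollagen, and was at 1.64, 1.78 and 1.74 FPKM in WT samples and 6.27, 6.48 and 6.08 FPKM in Gsdmd-/- (log2 change 1.42, adjusted p = 9.23e-07). Aebp1, which encodes a collagen-binding matrix protein, was at 3.59, 3.65 and 3.79 FPKM in WT samples and 7.69, 8.05 and 9.19 FPKM in Gsdmd-/- (log2 change 0.99, adjusted p = 7.75e-06). The cross-linking oxidase genes Loxl1 and Lox changed in opposite directions. Loxl1 was at 0.93, 1.18 and 0.77 FPKM in WT samples and 2.83, 3.17 and 2.46 FPKM in Gsdmd-/- (log2 change 0.96, adjusted p = 6.91e-05), while Lox was at 4.96, 5.20 and 4.97 FPKM in WT samples and 3.45, 3.24 and 3.29 FPKM in Gsdmd-/- (log2 change -0.48, adjusted p = 9.01e-05). Of the other genes of this family, Loxl2 and Loxl3 rose (log2 changes 0.35 and 0.70) and Loxl4 did not pass the test. The genotypes overlapped for neither Loxl1 nor Lox, and Lox was the more abundant of the pair in all 6 samples. The fall of Lox was -0.17 after correction for length and GC (adjusted p = 0.0332) and -0.73 in TPM (adjusted p = 1.19e-05), so its size depended on the scaling.

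The 5 other secreted protein genes all rose. Serpinf1 encodes pigment epithelium-derived factor, an inhibitor of vessel growth, and was at 1.97, 2.26 and 2.49 FPKM in WT samples and 7.02, 7.28 and 6.90 FPKM in Gsdmd-/- (log2 change 1.32, adjusted p = 2.33e-06). Igfbp7, an insulin-like growth factor binding protein gene, was at 4.72, 5.45 and 5.16 FPKM in WT samples and 12.1, 15.1 and 12.4 FPKM in Gsdmd-/- (log2 change 1.22, adjusted p = 9.16e-06). Both had a change of at least 1 in the deposited values, and after correction for length and GC they were at 1.06 and 0.72. Gpx3, which encodes the secreted glutathione peroxidase, was at 5.46, 6.13 and 6.09 FPKM in WT samples and 11.98, 11.7 and 9.78 FPKM in Gsdmd-/- (log2 change 0.81, and 0.44 after that correction). Fstl1, a follistatin-related protein gene, was at 2.96, 2.73 and 2.51 FPKM in WT samples and 5.10, 4.75 and 4.95 FPKM in Gsdmd-/- (log2 change 0.67, adjusted p = 4.26e-05). Nbl1, which encodes an antagonist of bone morphogenetic proteins, rose from near the floor, 0.37, 0.15 and 0.40 FPKM in WT, to 1.41, 1.18 and 1.37 FPKM in Gsdmd-/- (log2 change 0.83, adjusted p = 9.00e-05). Its ratio of means, 4.30, rested on an estimated 32 fragments in the WT libraries together and 142 in the Gsdmd-/- libraries.

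Transcripts of the 3 listed genes for stromal cell surface proteins were near the floor in both genotypes. Pdgfra and Pdgfrb encode the receptors for platelet-derived growth factor of fibroblasts and of pericytes. Pdgfra was at 0.20, 0.11 and 0.24 FPKM in WT samples and 0.28, 0.32 and 0.26 FPKM in Gsdmd-/-, all 3 above WT, and did not pass the test (log2 change 0.12, adjusted p = 0.0879). Pdgfrb was at 0.48, 0.38 and 0.43 FPKM in WT samples and 0.64, 0.46 and 0.74 FPKM in Gsdmd-/-, with overlap (log2 change 0.17, adjusted p = 0.104). Both passed after correction for length and GC (log2 changes 0.20 and 0.22, adjusted p = 0.0128 and 0.0491), and Pdgfrb also without Gsdmd-/- sample 2 (adjusted p = 0.0242). Thy1, a surface protein of fibroblasts and of T cells, was at 0.20, 0.21 and 0.14 FPKM in WT samples and 0.40, 0.26 and 0.31 FPKM in Gsdmd-/- (log2 change 0.16, adjusted p = 0.0366). It lost its call after that correction (adjusted p = 0.231) and without any 1 sample other than Gsdmd-/- sample 2 (adjusted p from 0.0600 to 0.129).

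The 3 genes of the contractile apparatus rose, and the caveolar gene Cav1 fell. Acta2 encodes smooth muscle actin of muscle cells and myofibroblasts. It was at 2.26, 2.85 and 1.5 FPKM in WT samples and 7.76, 7.11 and 8.13 FPKM in Gsdmd-/-, a 3.48-fold difference (log2 change 1.46, SE 0.142, adjusted p = 5.19e-05). Tagln encodes transgelin, which binds actin filaments. Its WT samples were uneven, 1.64, 0.49 and 0.45 FPKM, so that 1 of them was over 3 times the others, and its Gsdmd-/- samples were at 4.37, 3.85 and 3.57 FPKM (log2 change 1.46, SE 0.212, adjusted p = 5.32e-04). The WT libraries together held an estimated 81 Tagln fragments and the Gsdmd-/- libraries 376. Tpm2, a tropomyosin gene, was at 0.60, 0.61 and 0.54 FPKM in WT samples and 3.17, 2.70 and 2.19 FPKM in Gsdmd-/- (ratio 4.61, log2 change 1.21, adjusted p = 1.76e-05). The WT sample with the highest Tagln was not the one with the highest Acta2. Cav1, which encodes the coat protein of caveolae, was at 7.15, 7.80 and 7.09 FPKM in WT samples and 4.07, 4.37 and 4.78 FPKM in Gsdmd-/- (log2 change -0.63, SE 0.0652, adjusted p = 7.47e-05). It fell most of the 42 genes, with no overlap, and kept its call after correction for length and GC (-0.49).

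**Figure D3:**
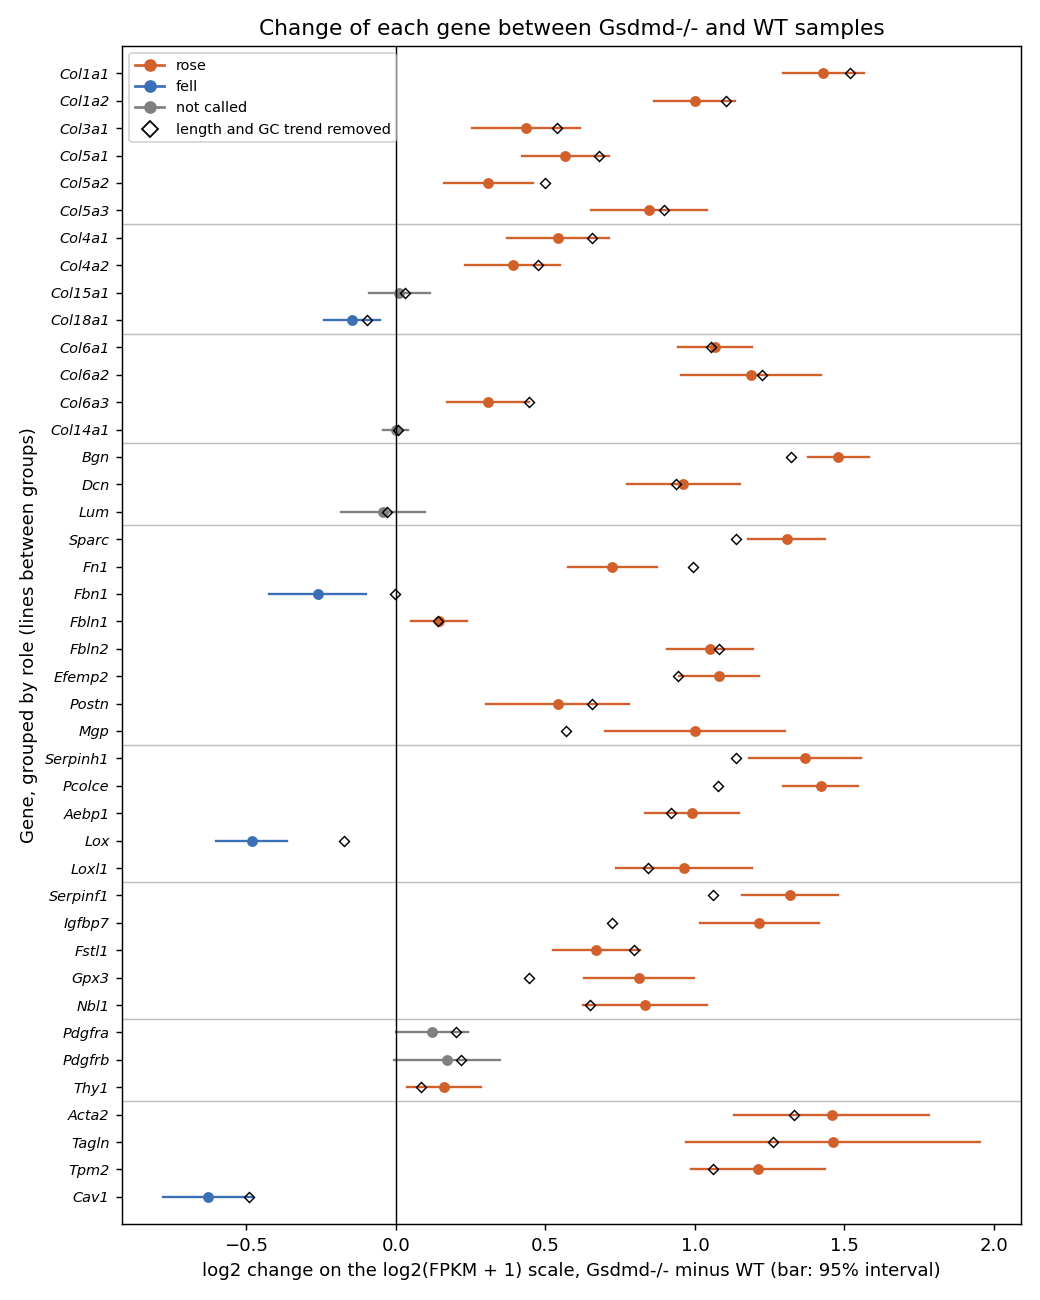
Log2 change of each of the 42 genes, Gsdmd-/- minus WT on the log2(FPKM + 1) scale, with its 95% interval; orange points rose, blue points fell and grey points did not pass the test, and open diamonds give the change after correction for length and GC. Bgn at 1.48 lies farthest right and Cav1 at -0.63 farthest left, and the diamonds of Fbn1 and Lox lie closer to 0 than their points.

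Genes that act on collagen before and after secretion, other than those above, also rose in most cases. Of 28 such enzymes and carriers, 17 rose (60.7%) and 3 fell (10.7%), with a median log2 change of 0.29. The 3 with the highest levels were P4hb, a subunit of prolyl hydroxylase that also serves as a general disulfide isomerase (180, 180 and 182 FPKM in WT, 215, 216 and 220 FPKM in Gsdmd-/-), Ppib, which encodes the proline isomerase cyclophilin B (133, 131 and 142 against 212, 198 and 216 FPKM), and Plod3, a lysyl hydroxylase gene (80.5, 85.5 and 80.2 against 103, 102 and 102 FPKM). Among the others that rose were 2 named after their values were seen: Fkbp10, which encodes a chaperone of procollagen, went from 0.70, 0.70 and 0.63 to 2.42, 2.34 and 2.25 FPKM (log2 change 0.99), and Bmp1, the C-propeptide protease gene that Pcolce enhances, from 1.75, 1.37 and 1.38 to 3.72, 3.89 and 3.61 FPKM (log2 change 0.93). After correction for length and GC, 16 of the 28 rose and 3 fell, and the log2 changes of P4hb, Ppib and Plod3 were 0.14, 0.14 and 0.17, against 0.26, 0.62 and 0.32 in the deposited values, with the call of Ppib lost (adjusted p = 0.0775).

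Collagen and matrix genes outside the list gave other counts. Of the 28 other collagen genes in the tables, 2 rose (Col9a3 and Col16a1, log2 changes 0.27 and 0.38), 2 fell (Col4a5 and Col4a6) and 24 did not pass, and 1 of the 28, Col4a5, had a mean of at least 1 FPKM. The call of Col9a3 was lost after correction for length and GC (log2 change 0.19, adjusted p = 0.110) and Col12a1 gained one (log2 change 0.19, adjusted p = 0.0210). Col23a1, next in level after Col4a5 and Col9a3, had a log2 change of 0.01 (adjusted p = 0.938). Of 51 other matrix genes measured, 15 rose (29.4%) and 7 fell (13.7%), against 26.3% and 22.9% of all genes. That background is not matched for level: 14 of the 51 had a mean of at least 1 FPKM, against 9905 of all 17041 genes. The counts were 15 and 4 after correction for length and GC. The most abundant of these were Tgfbi, a matrix protein gene of macrophages, which fell from 674 to 678 FPKM in the WT samples to 512 to 533 FPKM in the Gsdmd-/- samples, Emilin2, which fell from 75.8 to 76.1 to between 63.6 and 68.0 FPKM, and Ecm1, which rose from 47.5 to 51.3 to between 68.6 and 71.1 FPKM. The rise of Ecm1, 0.49 on the log2 scale, was 0.105 after correction for length and GC. Of 13 genes of collagen receptors and uptake 2 rose and 6 fell, and the 3 most abundant fell: Cd36 by 0.62, Itgb1 by 0.39 and Mrc1, the mannose receptor that takes up collagen, by 0.59 on the log2 scale. After correction for length and GC these 3 were at -0.24, -0.14 and -0.14, and 5 of the 13 genes rose and 4 fell.

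**Figure D4:**
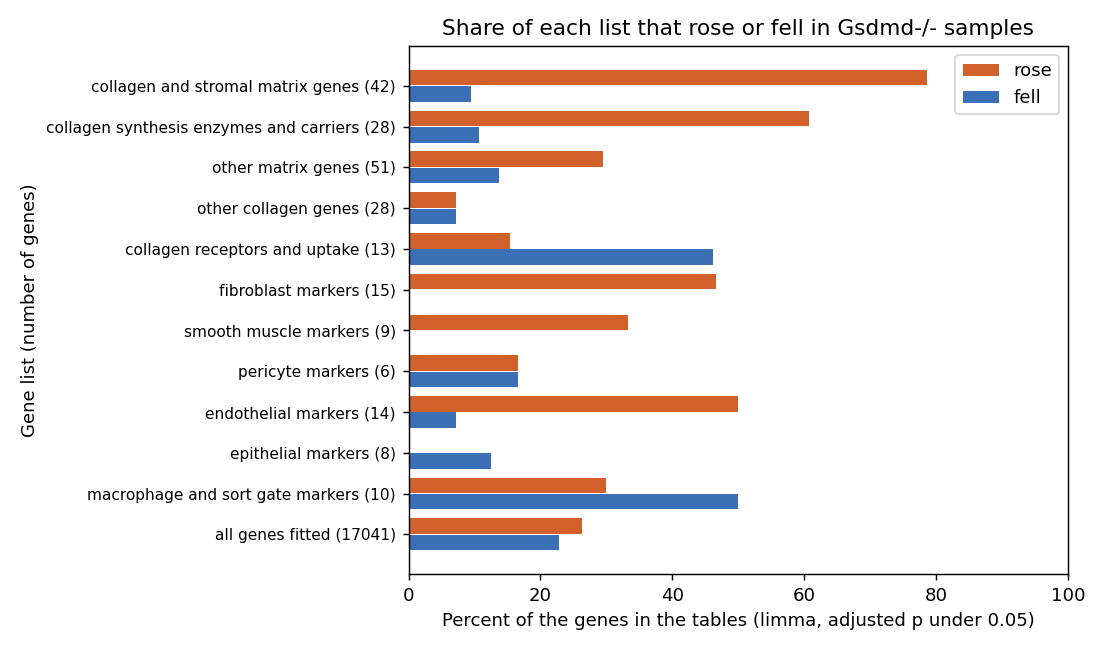
Percent of the genes of each list that rose (orange) or fell (blue) in Gsdmd-/- samples by limma at an adjusted p under 0.05, with the number of genes in the tables in brackets. The 42 genes of collagens and stromal matrix (78.6%) and the collagen enzymes and carriers (60.7%) exceed all genes (26.3%) in rises. The other collagen genes (7.14%) lie below that share, and 1 of those 28 had a mean of at least 1 FPKM. The lists differ in level, and low genes are seldom called.

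Markers of cells outside the gate were measured beside these genes. Of 15 fibroblast markers in the tables that are not among the 42, 7 rose (46.7%) and 8 did not pass. The most abundant, Pdpn, which macrophages can also express, was at 32.1, 32.1 and 33.0 FPKM in WT samples and 33.3, 33.7 and 32.0 FPKM in Gsdmd-/- samples (log2 change 0.03, adjusted p = 0.542), the log2 change of Cd34 was 0.21 (adjusted p = 0.0704) and that of Pdgfrl 0.16 (adjusted p = 0.318). Of the 15, 6 rose after correction for length and GC and 1 fell, Pdpn, with a log2 change of -0.15 (adjusted p = 0.00512). Without Pdpn, the summed level of this list was 5.94 to 6.96 FPKM in WT and 8.73 to 9.68 FPKM in Gsdmd-/-. Of 9 smooth muscle markers that are not among the 42, 3 rose (Tpm1, Smtn and Actg2), with a sum without Tpm1 of 1.0 to 1.27 FPKM in WT and 2.13 to 2.29 FPKM in Gsdmd-/-. The call of Tpm1 was lost after correction for length and GC (log2 change 0.10, adjusted p = 0.0602), leaving 2 that rose, and in TPM its log2 change was -0.11. The defining smooth muscle genes Cnn1 and Des were listed at 0 in all WT samples and at most 0.07 FPKM in Gsdmd-/- samples, and Myh11 was at 0.01 FPKM in WT and 0.02 to 0.04 FPKM in Gsdmd-/- samples. Of 6 pericyte markers, Mcam rose and Cspg4 fell (log2 changes 0.17 and -0.21), calls that were lost after correction for length and GC (adjusted p = 0.0543 and 0.0614), and the list summed to under 1 FPKM in every sample. Of 14 endothelial markers 7 rose and 1 fell (8 and 1 after correction for length and GC). Kdr, the most abundant, fell from 54.6 to 57.7 FPKM in WT to 24.5 to 28.9 FPKM in Gsdmd-/-, while Vwf and Cdh5 did not pass. Vwf rose after that correction (log2 change 0.20, adjusted p = 0.0173). Without Kdr the list summed to 8.69 to 9.99 FPKM in WT and 12.3 to 13.1 FPKM in Gsdmd-/-. For fibroblast, smooth muscle and endothelial markers, the sums without the most abundant gene were therefore higher in all 3 Gsdmd-/- samples, with no overlap. With that gene, the endothelial sum was lower in Gsdmd-/- samples (63.3 to 67.6 FPKM in WT, 36.8 to 41.9 FPKM in Gsdmd-/-), and those of fibroblast and smooth muscle markers stayed higher. These sums were not corrected for length and GC or for total FPKM, which was higher in Gsdmd-/- samples. The part of these markers' cells in the rise of the 42 genes was not tested.

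Lists of other cell types gave the following counts. Of 8 epithelial markers measured, 1 fell (Cdh1, log2 change -0.52), with sums without Cdh1 of 0.25 to 0.48 FPKM in WT and 0.36 to 0.46 FPKM in Gsdmd-/-. Of 7 genes of enteric glia and neurons 3 rose and 1 fell, led by Uchl1 (log2 change 0.66, and 0.14 after correction for length and GC), the others being at 0.12 FPKM or less in every WT sample. The 4 mesothelial markers did not exceed 0.06 FPKM in any sample. Of 6 T and NK cell genes 2 fell (Il7r and Cd247), of 7 B and plasma cell genes 1 rose (Cd79b, log2 change 0.16), of 8 neutrophil genes 2 rose (Cxcr2 and S100a8), of 6 dendritic cell genes 2 rose and 1 fell, and of 6 genes of mast cells and eosinophils 2 fell (Kit and Siglecf). After correction for length and GC, 2 genes of enteric glia and neurons rose, Cd79b and S100a8 lost their calls (adjusted p = 0.295 and 0.132), 1 neutrophil gene and 1 dendritic cell gene rose, and the calls of falls in the enteric and dendritic cell lists were lost. The genes that moved in these lists were named after their values were seen where they are not among the 3 most abundant of their list.

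Some of the 42 genes share exonic bases with other genes in the GENCODE annotation of the same build, and whether counting used strand is not stated in the labels. The antisense gene Gm48529 covers 62.4% of the exonic bases of Tagln, and Gm9913 covers 20.1% of those of Fbn1. Smaller overlaps, of 2.93% to 7.03% of exonic bases, join Igfbp7 with Polr2b, Tagln with Pcsk7, Pdgfra with Gm42802, Efemp2 with Mus81 and Pcolce with Fbxo24 and Gm36266. Values of Tagln and Fbn1 are uncertain for this reason.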

How the data were processed

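The deposited tables, 1 per sample for 3 WT and 3 Gsdmd-/- samples, hold 1 normalized value per gene with no unit in the header. The deposited values were read as FPKM because their sums differ between samples and low values move in steps that shrink with transcript length. Per the submitters' processing notes, Bowtie2 version 2.2.5 and GRCm38.p6 were used; for the program behind the gene values, its annotation, strand setting and filters, nothing is given in the sources used here. From those steps in genes with 1 transcript, depth was estimated at 20100000 to 20800000 fragments. Estimated fragments are the FPKM times that depth and the length of the longest coding GENCODE M21 transcript, and carry the error of both. The RefSeq table of GRCm38.p6 held 16950 of the identifiers and gave coordinates, and 25 symbols that had been turned into dates were restored through it.

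The 26 genes at 0 in all samples were left out, and the other 17041 were fitted with limma version 3.58.1 (R version 4.3.3), with trend and robust settings, on log2(FPKM + 1), which understates changes of low genes. P-values are two-sided and adjusted by Benjamini-Hochberg over all 17041 genes. In simulated data for this comparison over the same 17041 genes, a small set of genes was changed by 1 or 0.5 on the log2 scale of FPKM. Those changed by 1 were called in 100% at a mean of 5 FPKM or more, 68.4% at 1 to 5 and 7.14% under 1. Those changed by 0.5 were called in 75.0%, 8.33% and 0%. Far fewer genes were changed there than the 49.2% called in the measured data, so an adjusted p under 0.05 was harder to reach. These shares can thus understate detection in the measured data. There, 5 of the 10 listed genes with a mean under 1 FPKM were called. A missing call at low level still says little. The trend on transcript length and GC content was fitted per sample with mgcv version 1.9.3 on genes with a mean of at least 1 FPKM and divided out of FPKM for the 16419 genes with both properties. In simulated data over these genes, a length trend with no GC trend led to calls in 31.6% of unchanged genes and its removal brought that to 0%. The simulated trend was simpler than that of the measured data, where part of the trend remained after correction.

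The 42 genes, the other lists and the tests were chosen with earlier results of these data known. Values in every sample are given for genes with a mean of at least 1 FPKM over the 6 samples (32 of the 42), for those that fell and for others where a result turned on them. From the other lists the 3 genes with the highest mean are named, and any other gene was named after its values were seen. Listed markers without a row under their symbol were not analysed here.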

Additional observations from a re-analysis of the deposited data

How the results depend on the processing

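Under every alternative tried, between 28 and 34 of the 42 genes rose and between 1 and 4 fell. The median log2 change of the genes tested, 0.82, became 0.98 for the 34 genes with at least 1 FPKM in at least 3 samples (30 rose, 4 fell), 0.99 for the 32 with a mean of at least 1 FPKM (28 rose, 4 fell), 1.05 and 1.10 with pseudocounts of 0.1 and 0.01, 0.73 in TPM and 0.70 after correction for length and GC. The first 2 follow from testing fewer low genes and the pseudocounts from a smaller added value; for the others the cause was not tested. Leaving out 1 sample in turn, 31 to 34 genes rose, 3 to 4 fell, and the median was 0.77 to 0.83. Fbln1 and Thy1 lost their calls with a pseudocount of 0.01, in TPM and with quantile normalization. Changes of sign were seen in 3 uncalled genes. Col15a1 was at -0.0533 in TPM, -0.0286 with quantile normalization and -0.00516 to 0.0407 leaving out 1 sample. Col14a1 was at -0.00932 in TPM, -0.000794 with median ratio scaling, -0.0124 with quantile normalization and -0.00932 to 0.0118 leaving out 1 sample. Lum was at -0.0824 to 0.0259 leaving out 1 sample.

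Samples with the same replicate number did not deviate together (correlations of deviations -0.08, 0.12 and 0.02). Between samples of different numbers these correlations ran from -0.16 to 0.15. No pairing by number was seen, though a weak one could be missed. With the replicate block 32 genes rose and 4 fell (median 0.82), Thy1 losing its call (adjusted p = 0.0516). With the block and the correction for length and GC together, 34 rose, 1 fell and the median was 0.70; Lox (adjusted p = 0.0657) and Col18a1 (adjusted p = 0.0739) lost their calls.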
